A study of Homo sapiens with 24 samples.

Results

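The 28 genes described here make cholesterol, control its synthesis, take it up and export it. They were taken from a fixed list of symbols and matched to the gene IDs of both deposited count tables. All 28 symbols matched 1 ID each, out of 78724 IDs, and all 28 were high enough in both lines to be tested. By step, 7 genes belong to the mevalonate pathway, 11 to the sterol steps that follow it, 4 to the control of the transcription factor SREBP2, 4 to uptake and transport inside the cell, and 2 to export.

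RNA was sequenced from 2 human biliary tract cancer lines, OCUG-1 (gallbladder cancer, grown in DMEM) and HuCCT1 (intrahepatic cholangiocarcinoma, grown in RPMI-1640), both with 10% fetal bovine serum. Each line was kept for 72 h with a combination of 1.25 µM sorafenib and 1 µM IACS-010759, with vehicle (DMSO at no more than 0.1%), with 1.25 µM sorafenib, or with 10 µM sorafenib, giving 8 groups of 3 independent biological replicates and 24 libraries. Sorafenib is a kinase inhibitor used in liver cancer, with RAF and VEGF receptor kinases as known targets, and IACS-010759 blocks complex I of the mitochondrial respiratory chain. No group held IACS-010759 alone, so what it does without sorafenib was not measured. Line and medium differed together, and each cancer type is represented by a single line.

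Cells build cholesterol from acetyl-CoA through mevalonate, farnesyl diphosphate, squalene and lanosterol. When sterols in the membrane of the endoplasmic reticulum run low, SCAP escorts SREBP2 (the product of SREBF2) to the Golgi, where it is cut and released to raise transcription of the enzymes; INSIG1 and INSIG2 hold SCAP back when sterols are plentiful. When oxysterols accumulate, liver X receptors raise ABCA1 and ABCG1, which move cholesterol out of the cell, and MYLIP (also called IDOL), a ubiquitin ligase that sends lipoprotein receptors to degradation. Synthesis is an oxygen- and energy-consuming process, and cholesterol is also the precursor of the bile acids to which biliary epithelium is exposed.

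Total counts were 14388855 to 24019011 per library in OCUG-1 and 18238834 to 30693736 in HuCCT1. Of 10 biliary epithelial markers, 8 in OCUG-1 and 10 in HuCCT1 exceeded 10 CPM (the count of a gene relative to its scaled library total), and no marker of immune cells or endothelium did. CDH1, the epithelial cadherin, was at 1.93 CPM in OCUG-1. The summed biliary markers of OCUG-1 averaged 1540 CPM with the combination, 4940 CPM with vehicle, 6610 CPM at 1.25 µM and 1390 CPM at 10 µM sorafenib, so they moved with the cholesterol genes below. Of 6 fibroblast markers 2 exceeded 10 CPM in each line, and their sum in OCUG-1 moved the same way, at 57.7 CPM with the combination, 149 CPM with vehicle, 185 CPM at 1.25 µM and 78.1 CPM at 10 µM, with COL1A2 at 0.117 CPM. Of 8 hepatocyte markers 1 in OCUG-1 (FGB) and 2 in HuCCT1 did, and their sum in OCUG-1 was 8.51 CPM with the combination, 122 CPM with vehicle, 38.8 CPM at 1.25 µM and 10.8 CPM at 10 µM. Summed immune and endothelial markers stayed between 3.0 and 8.24 CPM over the OCUG-1 groups. The share of mitochondrially encoded counts in OCUG-1 was 4.71 to 6.48% with the combination, 11.1 to 13.6% with vehicle, 9.39 to 13.1% at 1.25 µM and 5.65 to 6.25% at 10 µM, so it was low in the groups where the cholesterol genes were low. The part of these markers and of the mitochondrial share in the results was not tested. In HuCCT1 the third replicate stood apart in several groups: it was the highest of 3 for 21 of the 28 genes with vehicle and for 21 at 1.25 µM, and the lowest for 16 at 10 µM, while for the combination it was highest for 8 and lowest for 6. Its mitochondrial share was 7.08% with vehicle, against 11.8% and 14.1% in the other two, and 12.5% at 1.25 µM, against 21.8% and 19.4%. HuCCT1 counts of changed genes are therefore also given without that replicate in the vehicle, 1.25 µM and 10 µM groups. In OCUG-1, replicate 3 was the highest and replicate 2 the lowest for 24 genes each at 10 µM, and replicate 3 of the combination was the lowest for 20.

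In OCUG-1, the cholesterol genes as a whole were highest at 1.25 µM sorafenib and lowest in the combination and at 10 µM. The CPM of the 28 genes summed to 2003 ± 249 (SD, n = 3) with the combination, and to 3464 ± 126 with vehicle, 4736 ± 83.3 at 1.25 µM and 2338 ± 362 at 10 µM. No OCUG-1 library of the combination or of 10 µM reached any library of vehicle, and every library at 1.25 µM lay above every vehicle library. In HuCCT1 the same sum was 3079 ± 46.5 with the combination, and 2826 ± 331 with vehicle, 3561 ± 182 at 1.25 µM and 3236 ± 323 at 10 µM. HuCCT1 groups at 10 µM and with vehicle overlapped. In bulk libraries, fewer cells expressing a gene and less RNA of it per cell cannot be told apart. The plot of summed levels shows each library. Of the 28 genes, 21 had their highest OCUG-1 mean at 1.25 µM and none in the combination. The ratio of the highest to the lowest of the 4 group means had a median of 2.71 in OCUG-1 and 1.49 in HuCCT1. These figures were not computed over all genes, so they do not show a trait particular to the 28. In the tests below, a larger share of all genes changed in OCUG-1 than in HuCCT1 at 10 µM.

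**Figure D1:**
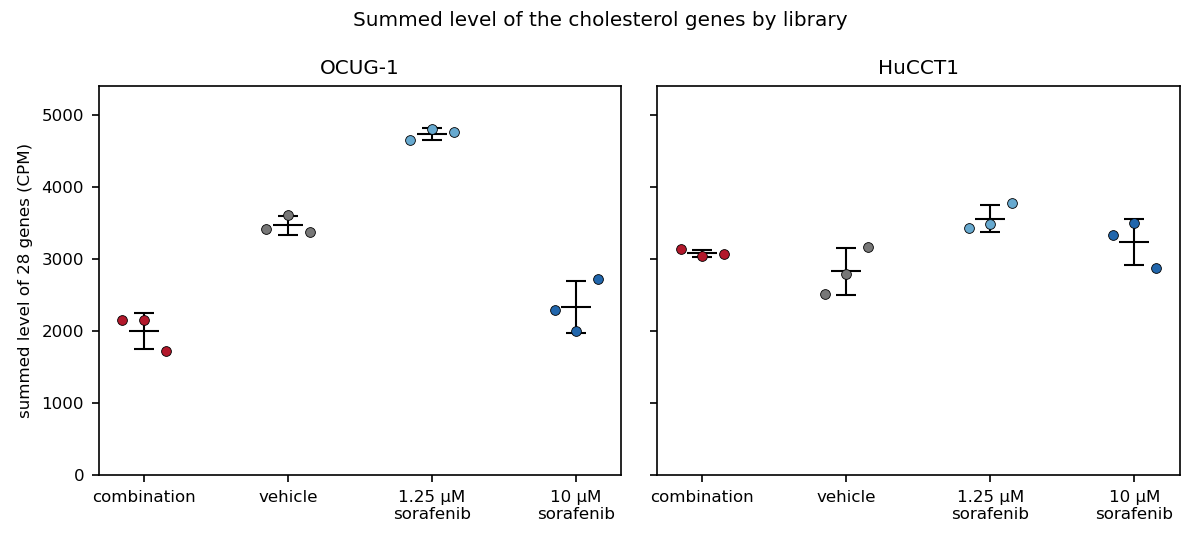
Summed level (CPM, linear axis from 0) of the 28 cholesterol genes in each library, by group, with OCUG-1 on the left and HuCCT1 on the right; points are libraries, and the horizontal mark and bar give the mean and SD of 3. OCUG-1 averages 2003 CPM with the combination, 3464 with vehicle, 4736 at 1.25 µM and 2338 at 10 µM, and HuCCT1 groups lie between 2826 and 3561.

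Each gene was tested with edgeR's quasi-likelihood test, and an adjusted p is Benjamini-Hochberg adjusted over all genes tested; a gene is said to rise or fall where that value is under 0.05. At 1.25 µM sorafenib, 12 of the 28 genes rose in OCUG-1 against vehicle (42.9%, where 5.92% of all genes tested were called higher) and none fell (4.61% of all genes were called lower). At an unadjusted p under 0.05, 15 were higher and 0 lower, and DESeq2 called 14 higher and 0 lower. The median log2 change of the 28 was 0.39, against -0.03 over all genes. At 10 µM the direction was mainly the opposite: 5 rose (17.9%, where 32.4% of all genes were called higher) and 16 fell (57.1%, against 30.7% of all genes), with a median of -0.64 against 0.00 over all genes. Adding IACS-010759 to 1.25 µM sorafenib gave 2 rises (7.14%, against 31.4% of all genes) and 21 falls (75.0%, against 26.7% of all genes), with a median of -1.17 against 0.06.

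Set against vehicle, the OCUG-1 combination had 5 genes higher and 21 lower (31.5% and 28.1% of all genes). Set against 1.25 µM, 10 µM sorafenib in OCUG-1 had 3 higher and 20 lower (31.6% and 29% of all genes). These comparisons share libraries with those above and are not separate evidence. ACAT2, IDI1, FDPS, FDFT1, SQLE, MSMO1, EBP, DHCR7, INSIG2 and NPC2, 10 genes in all, were called higher at 1.25 µM against vehicle and lower in the combination against 1.25 µM. Both comparisons use the same 1.25 µM libraries, with opposite sign, so the 2 calls of a gene are not independent. The share of all genes with this joint pattern was not counted. Of the 10, ACAT2 and SQLE had a rise at 1.25 µM that was called under every alternative run.

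HuCCT1 gave other counts. At 1.25 µM sorafenib 10 genes rose (35.7%, where 9.98% of all genes were called higher) and 3 fell (10.7%, where 8.5% were called lower), with a median of 0.32 against 0.00 over all genes. At 10 µM 8 rose and 4 fell (13% and 11.2% of all genes), with a median of 0.02 against 0.01. Adding IACS-010759 to 1.25 µM sorafenib left 1 gene higher and 2 lower (5.06% and 6.57% of all genes), a share close to the background. The HuCCT1 combination against vehicle had 7 higher and 2 lower (9.94% and 10.1% of all genes), and 10 µM against 1.25 µM had 3 higher and 7 lower (14.4% and 13.7% of all genes). HMGCS1, MVD, IDI1, HSD17B7, INSIG1 and STARD4, 6 genes, were called higher in the combination against vehicle in HuCCT1 and lower in OCUG-1. Of these, INSIG1 alone was called under every alternative in both lines. The share of all genes called in these opposite directions was not counted.

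The HuCCT1 counts turned on single libraries. Without the third replicate of the vehicle, 1.25 µM and 10 µM groups, 18 genes rose and 4 fell at 1.25 µM. In the same fit 14 rose and 5 fell at 10 µM, and 7 rose and 9 fell on adding IACS-010759. It gave 13 rises and 2 falls in the combination against vehicle, and 9 rises and 7 falls in 10 µM against 1.25 µM. Every gene called with all libraries was called again. The share of all genes called in that fit is not given here, so these counts cannot be set against a background. Leaving out vehicle replicate 1 alone left 3 genes called at 1.25 µM and 4 in the combination against vehicle, and leaving out replicate 2 of 1.25 µM left 8 called at that dose. On adding IACS-010759, 1 gene remained called without replicate 1 of 1.25 µM, without its replicate 2, or without replicate 3 of the combination, and 5 without replicate 3 of 1.25 µM. The HuCCT1 combination against vehicle had 5 called without combination replicate 1, and 10 µM against 1.25 µM had 6 without replicate 1 of 1.25 µM. Under every alternative run, 3 of the 13 HuCCT1 calls at 1.25 µM were made again (INSIG1, EBP and ABCG1), 9 of 12 at 10 µM, and 2 of 9 in the combination against vehicle (INSIG1 and MSMO1). In OCUG-1 the same held for 4 of 12 calls at 1.25 µM (ACAT2, NSDHL, SQLE and SC5D), 20 of 21 at 10 µM and 22 of 23 on adding IACS-010759. The 12 OCUG-1 calls at 1.25 µM were 7 without vehicle replicate 1, 4 without vehicle replicate 3 and 4 without replicate 2 of 1.25 µM.

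Scaling by library size in place of TMM lowered the median of all genes by 0.145 on the log2 scale for HuCCT1 at 1.25 µM, and raised it by 0.187 for the added IACS-010759 and by 0.18 for 10 µM against 1.25 µM in that line. The split of the 28 genes was then 4 higher and 3 lower at 1.25 µM, 5 higher and 1 lower on adding IACS-010759, and 6 higher and 3 lower for 10 µM against 1.25 µM. Over all genes, the share of calls that were higher was 26.7% under library size, against 54.0% under TMM, for HuCCT1 at 1.25 µM, and for OCUG-1 at 1.25 µM it was 28.8% against 56.2%. For the HuCCT1 addition of IACS-010759 that share was 82.4% against 43.5%, and for 10 µM against 1.25 µM 77.5% against 51.2%. In OCUG-1 this scaling moved the median of all genes by 0.151 for the added IACS-010759, and 10 genes rose and 0 fell at 1.25 µM under it. The share of all genes called under this scaling is not given here, so its counts cannot be set against a background.

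**Figure D2:**
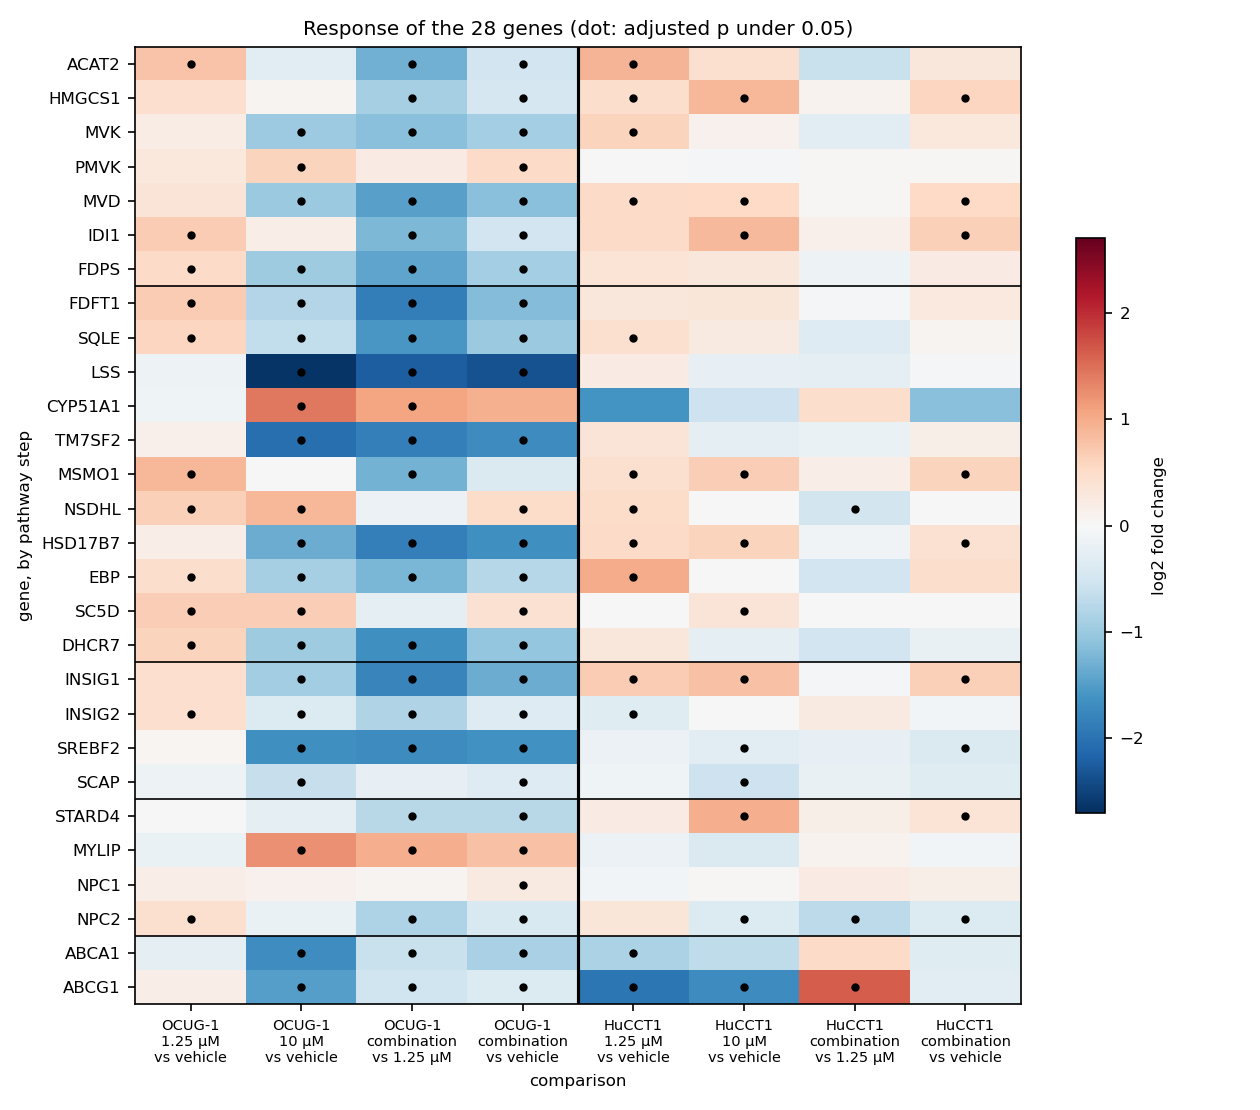
Log2 fold change of each of the 28 genes (rows, by pathway step) in 8 comparisons (columns, OCUG-1 on the left, HuCCT1 on the right); red is higher and blue lower in the first-named group, and a dot marks an adjusted p under 0.05. Most OCUG-1 rows turn blue at 10 µM and in the combination, down to -2.65 for LSS, with MYLIP and NSDHL among the rows that are red at 10 µM.

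With vehicle alone, the lines differed in the level of some of these genes. Of the 28, 12 were higher and 6 lower in OCUG-1 vehicle than in HuCCT1 vehicle (35.6% and 32.7% of all genes tested), shares near the background. ABCG1 differed most among those higher in OCUG-1, at 29.1 ± 1.35 CPM in OCUG-1 and 4.699 ± 0.259 CPM in HuCCT1 (log2 difference 2.62 ± 0.24, adjusted p = 1.75e-10), followed by ABCA1 (44.96 ± 6.43 and 9.15 ± 0.488 CPM, 2.30 ± 0.19). INSIG2 was lower in OCUG-1, at 25.5 ± 1.69 CPM, than in HuCCT1, at 87.5 ± 6.13 CPM (-1.78 ± 0.10, adjusted p = 1.31e-15). Per kb of exon, NPC2, the soluble carrier that hands cholesterol out of lysosomes, was the highest of the 28 in both lines, at 192 ± 6.75 CPM per kb in OCUG-1 and 188 ± 20.9 CPM per kb in HuCCT1. INSIG1 and MSMO1 came next in OCUG-1 (94.2 ± 10.5 and 91.2 ± 11.4 CPM per kb, overlapping), and MSMO1 and DHCR7 in HuCCT1 (65.5 ± 7.51 and 46.4 ± 12.3 CPM per kb, overlapping). From the third to the eleventh place in HuCCT1, each gene's libraries overlapped those of the next. The exporter ABCG1 was lowest in HuCCT1, at 0.768 ± 0.0424 CPM per kb, and overlapped ABCA1 at 0.806 ± 0.043. CYP51A1 was lowest in OCUG-1, at 0.252 ± 0.0214 CPM per kb.

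**Figure D3:**
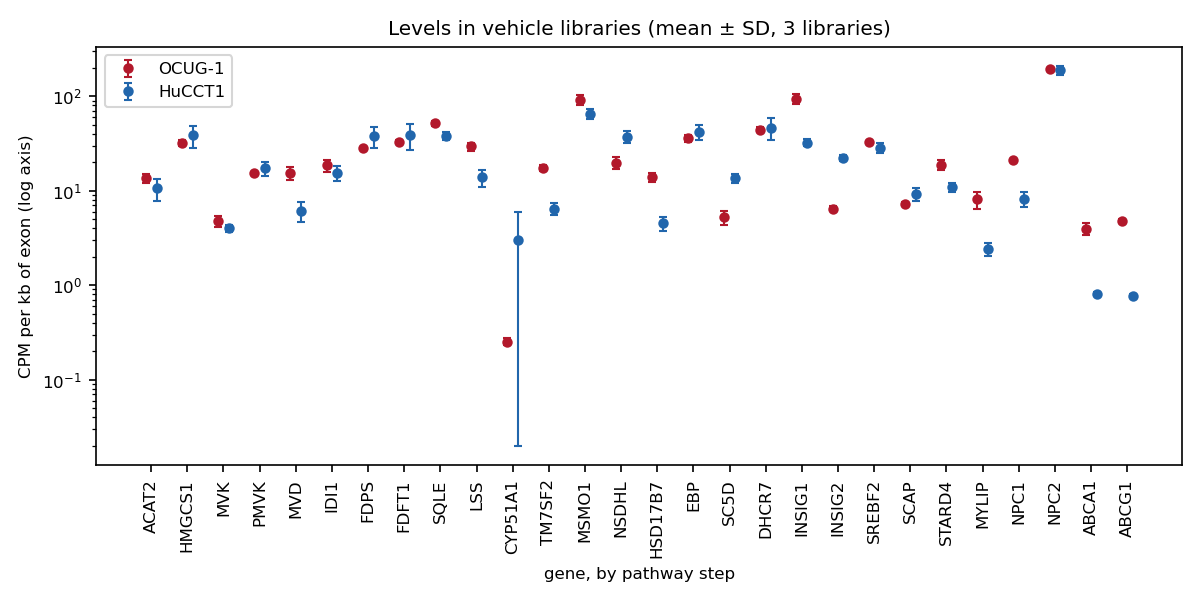
Level of each gene in vehicle libraries, in CPM per kb of exon on a log axis, as the mean and SD of 3 libraries; OCUG-1 is red and HuCCT1 blue. NPC2 is highest in both lines (192 and 188), ABCG1 and ABCA1 are higher in OCUG-1, and the wide HuCCT1 bar belongs to CYP51A1.

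CYP51A1, the lanosterol demethylase, was counted too rarely to describe as the others are. It had 2113 counts over all 24 libraries, 9 to 505 each, and HuCCT1 vehicle libraries held 123, 79 and 505. In the GENCODE annotation a same-strand gene covers 79.4% of its exons, and the sources used here do not say how reads shared by genes were counted, so its level and its calls are uncertain. ACAT2 overlaps TCP1 on the opposite strand over 9.2% of its exons, FDPS overlaps RUSC1-AS1 over 18.6%, and IDI1 overlaps IDI2-AS1 over 14.8%; with the strand option not given, reads of these pairs cannot be told apart. Copies named as pseudogenes held counts equal to 6.01% of those of HSD17B7 and 0.81% of those of FDPS.

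The promoters of these genes are shown because most of the enzymes moved together and SREBP2 and its partner NF-Y bind short DNA motifs near their starts. RefSeq promoter windows (GRCh38.p14, 250 bases before to 50 after the start) were found for 24 of the 28 genes. The SREBP motif TCACNCCAC, searched on both strands, occurred in 1 of 24 (4.17%), against 1.39% of 27305 genes with a window. The NF-Y motif CCAAT occurred in 18 of 24 (75.0%), against 39.7% of all genes, and the Sp1 motif GGGCGG in 23 of 24 (95.8%), against 48.3%. The E-box CACGTG occurred in 5 of 24 (20.8%), against 8.77%. An exact 16-letter form of the DR4 element that liver X receptors bind occurred in 0 of 24, against 0.0256%. Inexact forms of that element were not searched, so a window counted as lacking it may still hold one. The genes with a window include many that are not protein-coding and the motifs are short, so these shares are a description and not a site. Below are the 150 bases upstream of the start for genes that stand for the OCUG-1 patterns: SREBF2, which encodes SREBP2; LSS and TM7SF2, with the largest falls at 10 µM; HMGCS1 and MSMO1, which were not called there; and NSDHL and MYLIP, which rose. Capitals mark the SREBP motif and CCAAT or its reverse complement ATTGG.
SREBF2, chr22:41832955-41833104 on the plus strand: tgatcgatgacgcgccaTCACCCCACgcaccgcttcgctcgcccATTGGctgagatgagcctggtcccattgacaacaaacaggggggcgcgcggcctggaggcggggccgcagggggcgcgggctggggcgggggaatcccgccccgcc
LSS, chr21:46228775-46228924 on the minus strand: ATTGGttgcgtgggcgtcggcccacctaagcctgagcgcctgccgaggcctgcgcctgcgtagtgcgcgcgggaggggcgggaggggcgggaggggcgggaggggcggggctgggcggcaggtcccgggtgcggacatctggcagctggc
TM7SF2, chr11:65111722-65111871 on the plus strand: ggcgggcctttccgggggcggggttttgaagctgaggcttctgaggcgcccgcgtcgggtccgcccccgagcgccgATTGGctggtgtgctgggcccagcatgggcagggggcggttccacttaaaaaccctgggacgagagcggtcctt
HMGCS1, chr5:43313413-43313562 on the minus strand: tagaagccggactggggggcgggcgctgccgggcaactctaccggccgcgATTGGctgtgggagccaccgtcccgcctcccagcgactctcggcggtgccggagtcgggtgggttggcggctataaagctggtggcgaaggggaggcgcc
MSMO1, chr4:165327519-165327668 on the plus strand: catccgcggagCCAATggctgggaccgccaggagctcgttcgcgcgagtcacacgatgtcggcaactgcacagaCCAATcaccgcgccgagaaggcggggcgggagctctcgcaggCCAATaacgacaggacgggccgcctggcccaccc
NSDHL, chrX:152830913-152831062 on the plus strand: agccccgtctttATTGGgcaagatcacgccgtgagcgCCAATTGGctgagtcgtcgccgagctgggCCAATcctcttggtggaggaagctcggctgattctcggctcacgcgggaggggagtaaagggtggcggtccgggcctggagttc
MYLIP, chr6:16128936-16129085 on the plus strand: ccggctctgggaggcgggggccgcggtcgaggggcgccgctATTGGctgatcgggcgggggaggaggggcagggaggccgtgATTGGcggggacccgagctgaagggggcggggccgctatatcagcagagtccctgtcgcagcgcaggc

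SREBF2 held the SREBP motif, with a CCAAT sequence after it. Both the genes that fell and those that were not called or rose held CCAAT in the printed stretch, and NSDHL held it more often than LSS did. HMGCS1 has another RefSeq start, and the 150 bases before that one (chr5:43313182-43313331) held no CCAAT. A motif was counted for a gene where any of its windows held it.

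The mevalonate enzymes fell in OCUG-1 when IACS-010759 was added: 6 of 7 were lower than at 1.25 µM, with a median log2 change of -1.22 (26.7% of all genes were called lower). At 10 µM 3 of 7 fell and PMVK rose, against 30.7% of all genes called lower and 32.4% higher. At 1.25 µM 3 of 7 rose (5.92% of all genes), and the rise of IDI1 was lost in 7 of 11 alternatives (highest adjusted p 0.189). In HuCCT1 4 of 7 rose at 1.25 µM (median 0.51; 9.98% of all genes), 3 of 7 rose at 10 µM (median 0.44; 13% of all genes), and on adding IACS-010759 the median was 0.02.

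MVD, the decarboxylase that yields isopentenyl diphosphate, moved most. OCUG-1 libraries held MVD at 31.6, 33.05 and 28.9 CPM with the combination, and at 85.7, 64.8 and 66.6 with vehicle, 107, 89.7 and 83.7 at 1.25 µM and 35.04, 27.9 and 40.7 at 10 µM. The combination and 10 µM libraries did not overlap the others. MVD fell by 1.47 ± 0.14 on the log2 scale in the combination against 1.25 µM (adjusted p = 9.74e-08) and by 1.00 ± 0.14 at 10 µM against vehicle (6.78e-06). HuCCT1 libraries held MVD at 44.4, 40.4 and 40.3 CPM with the combination, and at 21.3, 30.1 and 34.7 with vehicle, 40.6, 38.7 and 43.8 at 1.25 µM and 39.4, 43.5 and 42.3 at 10 µM. There MVD rose at 1.25 µM (0.52 ± 0.14, adjusted p = 0.0174) and at 10 µM (0.54 ± 0.14, 0.00948), with every treated library above every vehicle library; the call at 1.25 µM was lost in 3 of 12 alternatives (highest adjusted p 0.0747).

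FDPS makes farnesyl diphosphate, the branch point towards sterols and protein prenylation. OCUG-1 libraries held FDPS at 58.02, 52.1 and 50.1 CPM with the combination, and at 109, 105 and 105 with vehicle, 146, 158 and 159 at 1.25 µM and 53.4, 41.1 and 61.5 at 10 µM. It rose at 1.25 µM (0.51 ± 0.12, adjusted p = 0.0123), fell by 0.97 ± 0.12 at 10 µM (1.4e-06) and was lower by 1.42 ± 0.12 in the combination than at 1.25 µM (1.85e-08). HuCCT1 libraries held FDPS at 164, 159.6 and 168 CPM with the combination, and at 109.6, 133 and 180.1 with vehicle, 173, 156 and 214 at 1.25 µM and 193, 203 and 129 at 10 µM. All 4 HuCCT1 groups overlapped, and none of its changes was called. The OCUG-1 rise at 1.25 µM was lost in 2 of 11 alternatives (highest adjusted p 0.0569), without vehicle replicate 3 and without replicate 2 of 1.25 µM.

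ACAT2, the cytosolic thiolase of the opening step, was among the rises at 1.25 µM in both lines. OCUG-1 libraries held ACAT2 at 43.3, 39.5 and 32.6 CPM with the combination, and at 51.7, 64.3 and 59.2 with vehicle, 86.3, 107 and 112 at 1.25 µM and 44.5, 36.6 and 56.2 at 10 µM. It rose at 1.25 µM (0.77 ± 0.15, adjusted p = 0.00371) and fell in the combination against 1.25 µM (-1.29 ± 0.15, 8.86e-07); at 10 µM the groups overlapped (-0.28 ± 0.15, 0.102). HuCCT1 libraries held ACAT2 at 55.98, 56.8 and 56.5 CPM with the combination, and at 36.95, 40.4 and 59.01 with vehicle, 74.5, 76.4 and 108 at 1.25 µM and 66.02, 77.9 and 40.5 at 10 µM. The rise at 1.25 µM was 0.93 ± 0.22 (0.0115), and the lower level with the combination was not called (-0.61 ± 0.22, 0.0876). The HuCCT1 call was lost without vehicle replicate 1 (adjusted p 0.0512).

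IDI1, which isomerises isopentenyl diphosphate, was not called at 10 µM in OCUG-1, where its libraries overlapped those of vehicle. OCUG-1 libraries held IDI1 at 58.8, 57.6 and 41.8 CPM with the combination, and at 67.02, 87.2 and 87.1 with vehicle, 105, 125 and 169 at 1.25 µM and 84.8, 62.9 and 111 at 10 µM. Its change at 10 µM was 0.17 ± 0.21 (0.491), while the combination was lower than 1.25 µM by 1.22 ± 0.21 (0.000207). HuCCT1 libraries held IDI1 at 100.1, 109 and 104 CPM with the combination, and at 62.3, 58.3 and 80.7 with vehicle, 80.3, 89.4 and 117 at 1.25 µM and 138, 144 and 85.7 at 10 µM. It rose at 10 µM in HuCCT1 (0.87 ± 0.18, 0.00271).

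MVK, the mevalonate kinase, fell in OCUG-1 at 10 µM and rose in HuCCT1 at 1.25 µM. OCUG-1 libraries held MVK at 15.8, 15.1 and 15.5 CPM with the combination, and at 34.9, 26.9 and 30.8 with vehicle, 36.3, 35.02 and 37.9 at 1.25 µM and 14.3, 14.2 and 16.2 at 10 µM. All 6 libraries of the combination and 10 µM lay under the other 6. MVK fell by 0.98 ± 0.12 at 10 µM (7.53e-07) and by 1.12 ± 0.12 in the combination against 1.25 µM (2.13e-07). HuCCT1 libraries held MVK at 30.4, 30.7 and 33.6 CPM with the combination, and at 23.2, 27.9 and 26.5 with vehicle, 43.2, 37.3 and 37.3 at 1.25 µM and 28.996, 34.3 and 21.02 at 10 µM. The HuCCT1 rise at 1.25 µM was 0.61 ± 0.15 (0.00902), and the call was lost without vehicle replicate 1 (adjusted p 0.0527).

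The other mevalonate genes were HMGCS1, the HMG-CoA synthase, and PMVK, the next kinase after MVK. HMGCS1 in OCUG-1 was at 121, 117 and 75.5 CPM with the combination, and at 141, 162 and 151 with vehicle, 172, 213 and 247 at 1.25 µM and 151, 123 and 179.8 at 10 µM. It was lower in the combination than at 1.25 µM (-0.90 ± 0.18, 0.000376), and the difference between 10 µM and vehicle was 0.07 ± 0.17 (0.752). In HuCCT1 HMGCS1 was at 277, 272 and 259 CPM with the combination, and at 145, 160.0 and 236 with vehicle, 221, 230.3 and 301 at 1.25 µM and 346, 324 and 330.1 at 10 µM, and it rose at 10 µM (0.89 ± 0.15, 0.000603). PMVK rose in OCUG-1 at 10 µM (0.59 ± 0.14, 0.000874) and in HuCCT1 had changes of -0.03 to 0.04 in the same 3 main comparisons.

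The sterol steps held the largest falls. In OCUG-1, 8 of 11 genes were lower in the combination than at 1.25 µM (median -1.58; 26.7% of all genes), 7 of 11 fell at 10 µM (median -0.79; 30.7% of all genes) while CYP51A1, NSDHL and SC5D rose (32.4% of all genes), and 7 of 11 rose at 1.25 µM (median 0.58; 5.92% of all genes). In HuCCT1 5 of 11 rose at 1.25 µM (median 0.34; 9.98% of all genes) and 3 of 11 at 10 µM (median 0.01; 13% of all genes).

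LSS, the lanosterol synthase that closes the sterol rings, lies at chr21:46188141-46228824 on the minus strand (GRCh38, GENCODE 29). OCUG-1 libraries held LSS at 35.8, 41.1 and 40.5 CPM with the combination, and at 237, 197 and 206 with vehicle, 198, 202 and 196 at 1.25 µM and 32.9, 27.5 and 36.7 at 10 µM. The combination and 10 µM were both far under every vehicle and 1.25 µM library. LSS was 6.27-fold lower at 10 µM than with vehicle (log2 -2.65 ± 0.12, adjusted p = 5.46e-12) and 4.68-fold lower in the combination than at 1.25 µM (-2.23 ± 0.12, 7.48e-11). At 1.25 µM itself the change was -0.13 ± 0.11 (0.473). HuCCT1 libraries held LSS at 98.9, 93.5 and 97.6 CPM with the combination, and at 81.96, 94.3 and 122 with vehicle, 122, 108 and 115 at 1.25 µM and 101, 99.8 and 55.7 at 10 µM. None of its HuCCT1 changes was called, and the third 10 µM library was the lowest of the 12.

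TM7SF2, a sterol reductase acting after lanosterol, followed LSS in size. OCUG-1 libraries held TM7SF2 at 15.7, 19.3 and 16.1 CPM with the combination, and at 64.01, 56.7 and 55.9 with vehicle, 71.2, 67.6 and 60.9 at 1.25 µM and 12.9, 12.5 and 15.8 at 10 µM. The combination and 10 µM libraries lay under all the others. It was 4.1-fold lower at 10 µM (-2.03 ± 0.12, 1.79e-10) and 3.6-fold lower in the combination than at 1.25 µM (-1.85 ± 0.12, 9.89e-10). HuCCT1 libraries held TM7SF2 at 26.4, 24.2 and 22.6 CPM with the combination, and at 18.5, 22.4 and 24.7 with vehicle, 29.1, 26.2 and 27.6 at 1.25 µM and 18.1, 20.4 and 16.7 at 10 µM. In HuCCT1 10 µM was lower than 1.25 µM (-0.59 ± 0.13, 0.00276), and neither dose was called against vehicle.

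FDFT1, the squalene synthase that commits farnesyl diphosphate to sterols, fell in OCUG-1 at 10 µM and with the combination. OCUG-1 libraries held FDFT1 at 83.3, 77.1 and 55.4 CPM with the combination, and at 172, 181 and 162 with vehicle, 261, 297 and 291 at 1.25 µM and 94.1, 61.2 and 128 at 10 µM. The rise at 1.25 µM was 0.69 ± 0.20 (0.0419), the fall at 10 µM against vehicle -0.79 ± 0.20 (0.00355), and the fall in the combination against 1.25 µM -1.86 ± 0.21 (2.71e-06). The call at 1.25 µM was lost in 7 of 11 alternatives (highest adjusted p 0.132), among them leaving out any 1 of the 6 libraries and the replicate block. The 10 µM libraries were widely spread but all lay under the vehicle libraries. HuCCT1 libraries held FDFT1 at 242, 250.1 and 234 CPM with the combination, and at 156, 179 and 270.4 with vehicle, 221, 214 and 311 at 1.25 µM and 276, 284 and 198 at 10 µM, with overlapping groups.

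HSD17B7, the ketosteroid reductase of the demethylation steps, went opposite ways in the lines at 10 µM. OCUG-1 libraries held HSD17B7 at 21.9, 21.2 and 16.6 CPM with the combination, and at 75.2, 62.99 and 62.6 with vehicle, 93.2, 75.3 and 64.8 at 1.25 µM and 25.5, 20.3 and 29.7 at 10 µM. It fell by 1.34 ± 0.16 at 10 µM (6.2e-07) and by 1.85 ± 0.16 in the combination against 1.25 µM (2.18e-08). HuCCT1 libraries held HSD17B7 at 29.9, 24.9 and 30.9 CPM with the combination, and at 17.8, 21.5 and 25.2 with vehicle, 31.1, 28.4 and 31.8 at 1.25 µM and 34.7, 36.2 and 27.04 at 10 µM. It rose there at 10 µM (0.60 ± 0.14, 0.00519), with no 10 µM library under the highest vehicle library.

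DHCR7, the reductase of the final step, fell at 10 µM in OCUG-1. OCUG-1 libraries held DHCR7 at 96.4, 86.9 and 67.8 CPM with the combination, and at 188, 193 and 173 with vehicle, 272, 288 and 296 at 1.25 µM and 85.1, 71.2 and 114 at 10 µM. The fall at 10 µM was -0.97 ± 0.15 (1.44e-05) and that in the combination against 1.25 µM -1.66 ± 0.15 (3.69e-08). HuCCT1 libraries held DHCR7 at 170.3, 167 and 167 CPM with the combination, and at 149, 181 and 249 with vehicle, 220.4, 208 and 289.6 at 1.25 µM and 171, 192 and 127 at 10 µM. In HuCCT1 its level at 10 µM was lower than at 1.25 µM (-0.55 ± 0.18, 0.031), and neither dose was called against vehicle. The call against 1.25 µM was lost in 6 of 12 alternatives (highest adjusted p 0.144).

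Among the remaining sterol genes, SQLE (squalene epoxidase) and EBP (a sterol isomerase) rose at 1.25 µM in both lines and fell at 10 µM in OCUG-1. The rise of EBP in OCUG-1 was lost in 6 of 11 alternatives (highest adjusted p 0.13), among them the replicate block, library-size scaling and 4 single libraries left out, and that of SQLE in HuCCT1 in 2 of 12 alternatives (highest adjusted p 0.0906). EBP had the largest rise at 1.25 µM in HuCCT1, at 204 ± 26.8 CPM at 1.25 µM and 102 ± 18.6 CPM with vehicle (log2 1.01 ± 0.19, adjusted p = 0.00223). SQLE in OCUG-1 averaged 104 ± 15.5 CPM with the combination and 338 ± 16.9 CPM at 1.25 µM (-1.58 ± 0.13, 7.32e-09). MSMO1, the methylsterol monooxygenase, rose at 1.25 µM in OCUG-1 (0.89 ± 0.20, 0.0124), a call lost in 3 of 11 alternatives (highest adjusted p 0.0703), and at 10 µM had a change of 0.02 ± 0.20 (0.932). NSDHL, the dehydrogenase that works with MSMO1, did not follow it: at 10 µM it rose in OCUG-1 to 69.8 ± 7.96 CPM, against 39.6 ± 5.31 CPM with vehicle (0.89 ± 0.13, 7.61e-06), and the combination was not called against 1.25 µM (-0.15 ± 0.13, 0.323). SC5D, a sterol desaturase, rose at both doses in OCUG-1 (0.66 ± 0.13 at 1.25 µM and 0.67 ± 0.13 at 10 µM). Among the 18 synthesis enzymes in OCUG-1, 10 fell at 10 µM and 4 rose, where 30.7% of all genes were called lower and 32.4% higher.

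The genes that control SREBP2 fell in OCUG-1 at 10 µM, with all 4 lower than with vehicle (30.7% of all genes were called lower). In the combination against 1.25 µM 3 of 4 fell (26.7% of all genes). At 1.25 µM 1 rose and 0 fell (5.92% and 4.61% of all genes). SREBF2, which encodes SREBP2, lies at chr22:41833079-41907308 on the plus strand. OCUG-1 libraries held SREBF2 at 76.01, 78.4 and 68.05 CPM with the combination, and at 256, 239 and 241 with vehicle, 265, 265 and 249 at 1.25 µM and 74.03, 64.998 and 81.9 at 10 µM. The highest library of the combination or 10 µM lay far under the lowest of the others. SREBF2 was 3.17-fold lower at 10 µM (adjusted p = 2.65e-10) and 3.23-fold lower in the combination than at 1.25 µM (5.03e-10). HuCCT1 libraries held SREBF2 at 162, 165 and 165 CPM with the combination, and at 191, 209 and 244 with vehicle, 194, 188 and 197 at 1.25 µM and 177, 172 and 172 at 10 µM. The HuCCT1 falls were smaller: -0.31 ± 0.10 at 10 µM (0.0296) and -0.38 ± 0.10 in the combination against vehicle (0.0111). The call at 10 µM was lost in 7 of 12 alternatives (highest adjusted p 0.134), among them library-size scaling, no filter, only the compared groups and 4 single libraries left out. That of the combination was lost in 2 of 12 alternatives (highest adjusted p 0.0557).

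INSIG1, which retains SCAP and is itself a target of SREBP2, was called in opposite directions in the lines. OCUG-1 libraries held INSIG1 at 138, 165 and 83.5 CPM with the combination, and at 326, 388 and 318 with vehicle, 494, 481 and 465 at 1.25 µM and 172, 109.7 and 228 at 10 µM. It fell at 10 µM (-0.95 ± 0.25, 0.00505) and in the combination against 1.25 µM (-1.78 ± 0.26, 5.68e-05), and the higher level at 1.25 µM was not called (0.45 ± 0.25, 0.261). HuCCT1 libraries held INSIG1 at 187, 185 and 179 CPM with the combination, and at 106, 123 and 123 with vehicle, 182, 191 and 195 at 1.25 µM and 199, 222 and 190.4 at 10 µM. All 9 treated HuCCT1 libraries lay above the 3 vehicle libraries. INSIG1 rose there at 1.25 µM (0.69 ± 0.10, 0.000274) and at 10 µM (0.79 ± 0.10, 3.29e-05).

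INSIG2, its paralog, was called in opposite directions in the lines at 1.25 µM. OCUG-1 libraries held INSIG2 at 20.1, 17.3 and 18.9 CPM with the combination, and at 23.97, 27.3 and 25.2 with vehicle, 34.9, 35.02 and 37.8 at 1.25 µM and 19.7, 16.3 and 20.6 at 10 µM. It rose at 1.25 µM (0.46 ± 0.12, 0.0171) and fell at 10 µM (-0.36 ± 0.12, 0.0111). The call at 10 µM was lost without replicate 2 of that group (adjusted p 0.0637), and that at 1.25 µM in 4 of 11 alternatives (highest adjusted p 0.074). HuCCT1 libraries held INSIG2 at 83.05, 83.3 and 83.3 CPM with the combination, and at 94.6, 84.6 and 83.4 with vehicle, 64.5, 70.2 and 74.7 at 1.25 µM and 86.5, 87.996 and 90.9 at 10 µM. There it fell at 1.25 µM (-0.32 ± 0.09, 0.0222), a call lost in 4 of 12 alternatives (highest adjusted p 0.113).

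SCAP, the escort of SREBP2, changed less. OCUG-1 libraries held SCAP at 35.3, 33.3 and 34.5 CPM with the combination, and at 48.3, 46.7 and 45.2 with vehicle, 46.8, 40.9 and 43.4 at 1.25 µM and 29.4, 30.8 and 26.8 at 10 µM. HuCCT1 libraries held SCAP at 44.01, 46.1 and 50.9 CPM with the combination, and at 52.7, 54.6 and 69.6 with vehicle, 50.1, 54.2 and 58.4 at 1.25 µM and 38.4, 38.9 and 42.4 at 10 µM. It fell at 10 µM in both lines, by 0.62 ± 0.10 in OCUG-1 (2.76e-05) and by 0.56 ± 0.12 in HuCCT1 (0.00198), while the added IACS-010759 was not called in either line (-0.23 ± 0.10 and -0.21 ± 0.11).

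**Figure D4:**
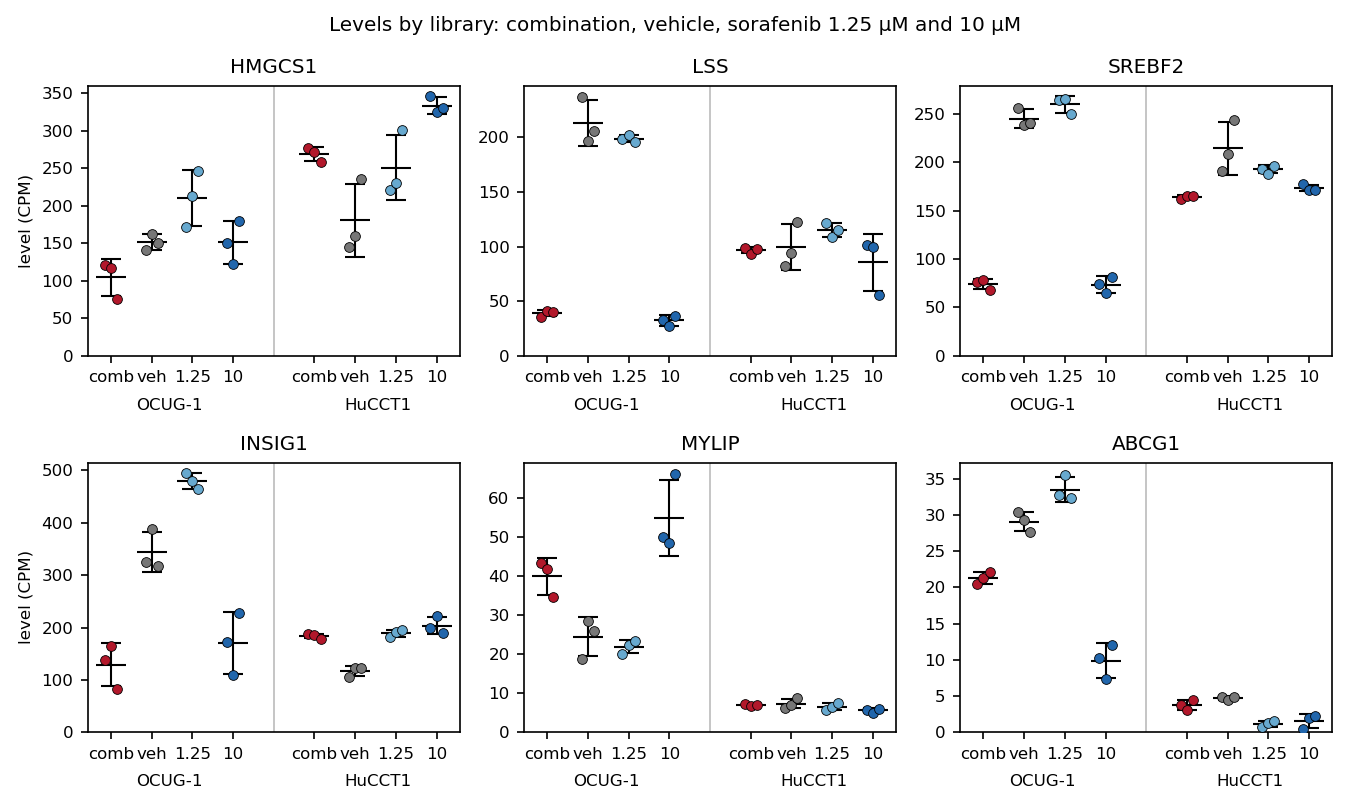
Level (CPM, linear axes from 0) of 6 genes in every library, with the combination (comb), vehicle (veh) and sorafenib at 1.25 and 10 µM for OCUG-1 on the left and HuCCT1 on the right of each panel; points are libraries, and marks and bars give the mean and SD of 3. LSS and SREBF2 are low in the OCUG-1 combination and 10 µM groups, MYLIP is high in them, and ABCG1 in HuCCT1 is low at both sorafenib doses.

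Uptake and transport did not move as a block: in OCUG-1 the median log2 change of the 4 genes was -0.03 at 10 µM and -0.34 in the combination against 1.25 µM. MYLIP, the ubiquitin ligase for lipoprotein receptors, lies at chr6:16129125-16148248 on the plus strand. OCUG-1 libraries held MYLIP at 43.3, 41.9 and 34.6 CPM with the combination, and at 18.8, 28.6 and 26.05 with vehicle, 20.1, 22.4 and 23.4 at 1.25 µM and 50.1, 48.6 and 66.1 at 10 µM. It was 2.35-fold higher at 10 µM (1.23 ± 0.15, 1.07e-06) and 1.97-fold higher in the combination than at 1.25 µM (0.98 ± 0.15, 2.34e-05). HuCCT1 libraries held MYLIP at 7.17, 6.82 and 6.95 CPM with the combination, and at 6.28, 7.06 and 8.67 with vehicle, 5.62, 6.499 and 7.56 at 1.25 µM and 5.76, 5.05 and 6.02 at 10 µM, with no change called.

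STARD4, a cytosolic sterol carrier, rose in HuCCT1 at 10 µM and fell in the OCUG-1 combination. OCUG-1 libraries held STARD4 at 67.8, 59.4 and 52.97 CPM with the combination, and at 92.3, 109.9 and 119 with vehicle, 103, 115 and 108 at 1.25 µM and 85.9, 81.3 and 90.1 at 10 µM. The combination was lower than 1.25 µM by 0.74 ± 0.11 (1.67e-05), and 10 µM was not called against vehicle (-0.25 ± 0.11, 0.0566). HuCCT1 libraries held STARD4 at 84.6, 75.7 and 80.1 CPM with the combination, and at 56.6, 60.6 and 68.9 with vehicle, 70.6, 73.2 and 72.5 at 1.25 µM and 126, 118 and 122 at 10 µM. Every HuCCT1 library at 10 µM lay above all the others, and the rise was 1.96-fold (0.97 ± 0.09, 4.3e-06).

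NPC2 and NPC1 pass cholesterol out of lysosomes in turn. OCUG-1 libraries held NPC2 at 372, 410.0 and 344 CPM with the combination, and at 516, 549 and 518 with vehicle, 749, 751 and 679 at 1.25 µM and 416, 420.4 and 491 at 10 µM. HuCCT1 libraries held NPC2 at 429, 387 and 390.3 CPM with the combination, and at 544, 558 and 452 with vehicle, 659, 708 and 587 at 1.25 µM and 371, 441 and 384 at 10 µM. NPC2 was lower in the combination than at 1.25 µM in both lines, by 0.84 ± 0.10 in OCUG-1 (1.76e-06) and by 0.70 ± 0.11 in HuCCT1 (0.00118). Of the HuCCT1 calls on adding IACS-010759, that of NPC2 held under every alternative run. NPC1 was called in none of the 6 main comparisons, with group means of 215 to 250.1 CPM in OCUG-1 and 78.6 to 92.4 CPM in HuCCT1.

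Both exporters fell in OCUG-1 at 10 µM (30.7% of all genes) and in the combination against 1.25 µM (26.7% of all genes). In HuCCT1 both fell at 1.25 µM (8.5% of all genes). Neither was called in OCUG-1 at 1.25 µM or in the HuCCT1 combination against vehicle. ABCG1 lies at chr21:42199689-42297244 on the plus strand. OCUG-1 libraries held ABCG1 at 20.5, 21.4 and 22.1 CPM with the combination, and at 30.3, 29.3 and 27.6 with vehicle, 32.7, 35.5 and 32.3 at 1.25 µM and 10.3, 7.31 and 12.1 at 10 µM. It fell at 10 µM (-1.49 ± 0.14, 5.68e-08) and, less, in the combination against 1.25 µM (-0.54 ± 0.14, 0.00261). HuCCT1 libraries held ABCG1 at 3.79, 3.08 and 4.48 CPM with the combination, and at 4.88, 4.403 and 4.81 with vehicle, 0.736, 1.31 and 1.56 at 1.25 µM and 0.474, 1.91 and 2.22 at 10 µM. There it fell at 1.25 µM (-1.94 ± 0.39, 0.00348) and at 10 µM (-1.69 ± 0.38, 0.00402), and it was higher in the combination than at 1.25 µM (1.63 ± 0.39, 0.0147). This rise was lost when replicate 1 or 2 of 1.25 µM or replicate 3 of the combination was left out.

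ABCA1, which loads cholesterol onto apolipoproteins, fell in OCUG-1 at 10 µM. OCUG-1 libraries held ABCA1 at 20.7, 25.2 and 23.7 CPM with the combination, and at 38.9, 51.7 and 44.2 with vehicle, 38.9, 38.4 and 37.8 at 1.25 µM and 15.02, 11.3 and 13.7 at 10 µM. It was 3.21-fold lower at 10 µM (-1.68 ± 0.13, 5.03e-09) and lower in the combination than at 1.25 µM (-0.61 ± 0.13, 0.000613). HuCCT1 libraries held ABCA1 at 7.54, 6.37 and 7.81 CPM with the combination, and at 8.93, 9.71 and 8.81 with vehicle, 3.68, 4.18 and 7.38 at 1.25 µM and 6.199, 3.71 and 7.16 at 10 µM. The fall at 1.25 µM in HuCCT1 (-0.85 ± 0.25, 0.0266) was lost in 5 of 12 alternatives.

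Whether the lines responded differently was tested directly, as OCUG-1 minus HuCCT1 in 1 model of all 24 libraries. At 1.25 µM 3 of 28 genes differed, all more positive in OCUG-1 (SC5D, INSIG2 and ABCG1; 4.96% of all genes were called more positive), and none more negative (4.69% of all genes); at an unadjusted p under 0.05 these counts were 5 and 0, and by DESeq2 3 and 0. At 10 µM 3 were more positive and 18 more negative (20.7% and 23.1% of all genes). For the added IACS-010759 1 was more positive and 20 more negative (18.6% and 20.2% of all genes). LSS differed most at 10 µM, by -2.50 ± 0.23 on the log2 scale (adjusted p = 8.9e-10), and ABCG1 for the added IACS-010759, by -2.28 ± 0.38 (2.23e-05). MYLIP was the gene more positive in both, by 1.55 ± 0.22 at 10 µM (1.75e-06) and 0.77 ± 0.22 for the added IACS-010759 (0.00662). CYP51A1, SCAP, NPC1 and NPC2 were not called in any of these 3 differences. Under every alternative run 2 of 3 were called again at 1.25 µM (not SC5D), 16 of 21 at 10 µM and 20 of 21 for the added IACS-010759. The medians of the 28 were 0.18, -0.84 and -1.22, against -0.03, -0.06 and -0.04 over all genes. Without the third HuCCT1 replicate of 3 groups, 4 were more positive and 1 more negative at 1.25 µM, 2 and 19 at 10 µM, and 1 and 22 for the added IACS-010759. The share of all genes called in that fit is not given here.

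**Figure D5:**
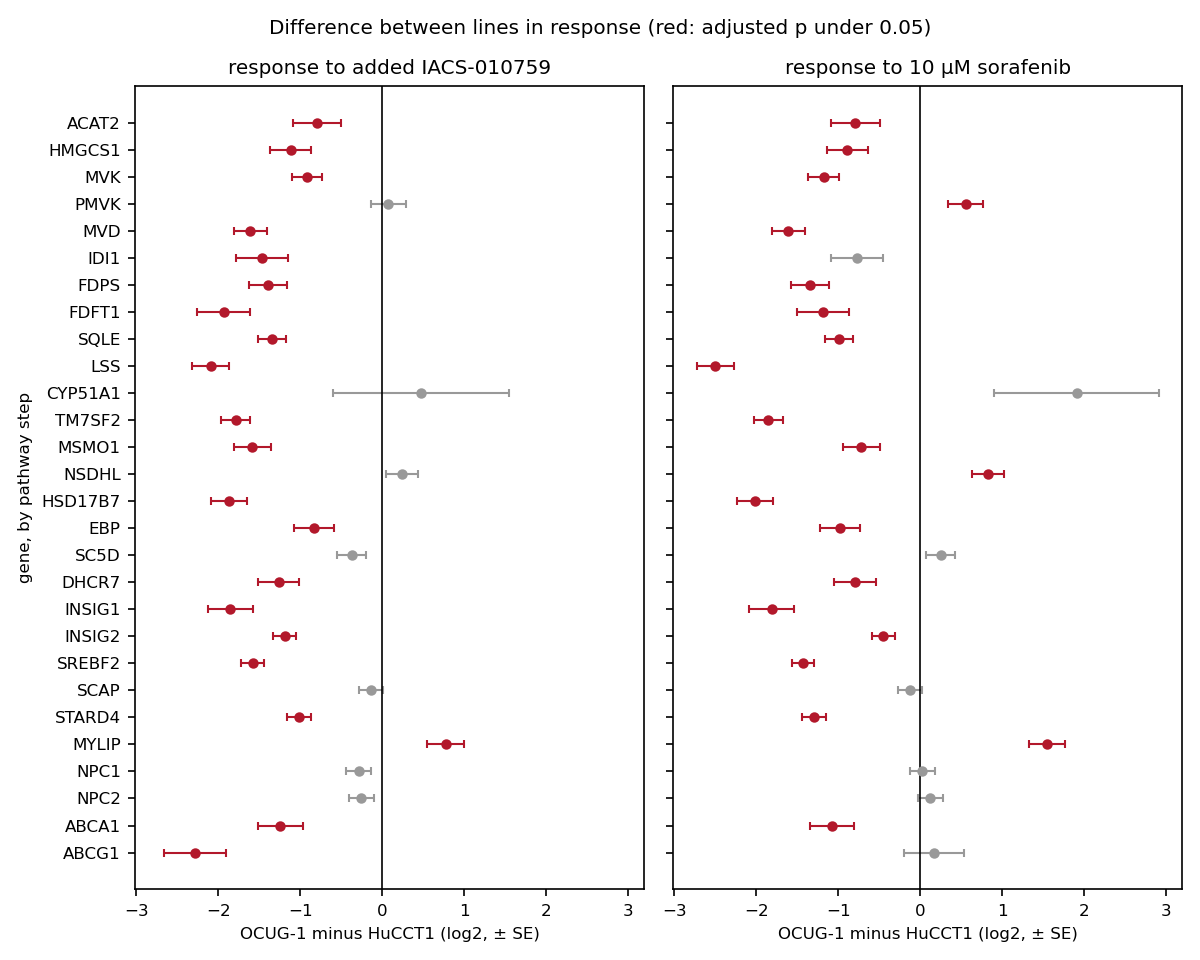
Difference between the lines in response, OCUG-1 minus HuCCT1, on the log2 scale with its SE, for each gene (rows, by pathway step); the left panel is the response to added IACS-010759 and the right panel that to 10 µM sorafenib against vehicle, and red marks an adjusted p under 0.05. Most synthesis genes lie left of 0 in both panels, LSS at -2.09 and -2.50, and MYLIP lies right of 0 in both.

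Of 63 further genes of cholesterol metabolism, 57 were tested in OCUG-1 and 54 in HuCCT1. In OCUG-1 21 rose and 25 fell at 10 µM (32.4% and 30.7% of all genes), 14 rose and 27 fell on adding IACS-010759 (31.4% and 26.7% of all genes), and 8 rose and 2 fell at 1.25 µM (5.92% and 4.61% of all genes). In HuCCT1 14 rose and 5 fell at 10 µM (13% and 11.2% of all genes), 1 rose and 6 fell on adding IACS-010759 (5.06% and 6.57% of all genes), and 9 rose and 3 fell at 1.25 µM (9.98% and 8.5% of all genes). The shares that rose at 10 µM in OCUG-1, that fell at 1.25 µM in both lines or at 10 µM in HuCCT1, and that rose on adding IACS-010759 in both lines were near or under those of all genes. In the isoprenoid branch, which leads from farnesyl diphosphate to dolichol, ubiquinone and prenylated proteins, 8 of 13 rose and 4 fell at 10 µM in OCUG-1 (32.4% and 30.7% of all genes), so the share that fell was near that of all genes. NUS1 and DHDDS, the subunits of the enzyme that makes the dolichol chain, rose by 1.59 ± 0.14 (adjusted p = 1.44e-08) and 1.42 ± 0.13 (2.3e-08), and RCE1, a protease for prenylated proteins, was higher in the combination than at 1.25 µM (1.09 ± 0.13, 9.81e-07).

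Among 9 genes of SREBP processing and sterol sensing, 6 rose and 1 fell at 10 µM in OCUG-1 (32.4% and 30.7% of all genes). The gene that fell was MBTPS1, the protease that makes the opening cut in SREBP (-1.16 ± 0.10, adjusted p = 2.37e-08). PAQR3, a Golgi anchor of SCAP, rose (1.76 ± 0.18, 1.73e-07), and SPRING1, which acts with that protease, was higher in the combination than at 1.25 µM (1.75 ± 0.17, 2.27e-07). Of 5 genes for liver X receptors and related nuclear receptors, 4 fell at 10 µM in OCUG-1, where 30.7% of all genes did. NR1H3 changed by -1.79 ± 0.15 (9.66e-09), RXRB by -1.10 ± 0.10 (3.58e-08) and NR1H2 by -0.63 ± 0.10 (1.63e-05) on the log2 scale.

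Of other transport genes in OCUG-1 at 10 µM, 7 of 11 within the cell fell and 2 rose, and 4 of 5 tested receptors and exporters fell and 1 rose, where 30.7% of all genes fell and 32.4% rose. GRAMD1B, which moves cholesterol from the plasma membrane to the endoplasmic reticulum, changed by -2.91 ± 0.16 (4.1e-11) and OSBPL9 by -1.18 ± 0.09 (4.59e-09), while OSBP, which exchanges sterol for a phosphoinositide at the Golgi, rose by 1.02 ± 0.11 (3.33e-07). The exporter ABCG4 changed by -3.45 ± 0.34 (6.88e-08) and the receptor LRP1 by -0.94 ± 0.10 (1.68e-07), and SCARB1, the receptor for high-density lipoprotein, was lower in the combination than at 1.25 µM (-1.31 ± 0.14, 2.83e-07). NCEH1 (0.91 ± 0.13, 9.44e-06), a cholesterol ester hydrolase, and SOAT1 (0.73 ± 0.13, 6.52e-05), which esterifies cholesterol for storage, both rose at 10 µM. LCAT, the plasma esterifying enzyme, fell on adding IACS-010759 in HuCCT1 (-0.73 ± 0.19, 0.0208).

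Of the oxysterol and bile acid enzymes, 4 of 7 were tested in OCUG-1, and 3 of the 4 fell on adding IACS-010759 (26.7% of all genes), among them HSD3B7 (-0.78 ± 0.13, adjusted p = 5.06e-05) and the sulfotransferase SULT2B1 (-1.81 ± 0.55, 0.0105). CYP39A1, an oxysterol hydroxylase, fell at 10 µM (-2.40 ± 0.53, 0.000655). Among 7 squalene and sterol cofactors, 4 fell on adding IACS-010759 in OCUG-1 (26.7% of all genes), with ERG28, a scaffold of the demethylation enzymes, at -0.87 ± 0.10 (6.13e-07) and LBR, whose membrane part is a sterol reductase, at -0.84 ± 0.11 (2.73e-06). SEC14L2, a lipid-binding protein that acts on squalene epoxidation, fell at 10 µM in HuCCT1 (-0.93 ± 0.11, 2.88e-05).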

How the data were processed

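The authors deposited raw counts per Ensembl gene without normalization, 1 table per line, from TruSeq mRNA libraries read as 150-bp pairs on a NovaSeq, per the labels' protocols. Per the submitters' processing notes, fastp 1.3.2, HISAT2 2.2.2, featureCounts (Subread 2.1.1), bcl2fastq, MultiQC 1.33, R 4.4.1 and DESeq2 1.42.1 were used with GRCh38. The sources used here do not give the annotation release, the strand option or the treatment of multiply mapping reads. Per the labels, 4 OCUG-1 libraries had extra runs, which were pooled.

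The counts were tested with edgeR 4.0.16 (R 4.3.3): TMM scaling, filterByExpr with a minimum count of 10 and robust quasi-likelihood F tests, two-sided, with arm as the only term, fitted to the 12 libraries of each line and, to compare the lines, to all 24 libraries at once. Genes tested numbered 19576 in HuCCT1, 20511 in OCUG-1 and 22944 in the joint fit, and the threshold was an adjusted p of 0.05. Standard errors of log2 fold changes derive from the F statistic. CPM use TMM factors of all 24 libraries, and CPM per kb the exon length of GENCODE 29. The biological coefficient of variation was 0.137 in HuCCT1 and 0.131 in OCUG-1. Counts of replicates differed by more than counting error in all 24 pairs (chi-square per degree of freedom 4.89 to 59). Alternatives were DESeq2 1.42.0, library-size scaling, no low-count filter, only the compared groups, a replicate block, and leaving out libraries. The fits were tested on simulated counts, with few genes changed at 10 µM and the same spread for every gene. Of 1.5-fold changes, 44.8% were recovered in HuCCT1 and 50.7% in OCUG-1. Of 2-fold changes, 98.5% and 95.5% were recovered. A gene that was not called may therefore still have changed by about 1.5-fold.

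The 28 genes and the lists were chosen with earlier results of these data known. Every library's value is given for up to 5 genes per step with the largest called change over the 6 main comparisons (each dose against vehicle, and the combination against 1.25 µM), and for HMGCS1, which the rule does not select; up to 3 other pathway genes are named per list by smallest adjusted p.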

Additional observations from a re-analysis of the deposited data

Results flagged for a closer look

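Among the 19 genes with the largest called changes of each step, 34 responses differed between the lines and are given as log2 differences. The test was of the difference itself (OCUG-1 minus HuCCT1 in the 24-library fit, edgeR, adjusted over all genes). The 19 were chosen by their changes in these same libraries, so the count of 34 only lists them. Of all genes tested, 4.96% were called more positive and 4.69% more negative at 1.25 µM. These shares were 20.7% and 23.1% at 10 µM, and 18.6% and 20.2% for added IACS-010759. For the response to 1.25 µM sorafenib, INSIG2 differed by 0.82 and ABCG1 by 2.15. HMGCS1, which is not among the 19 but is also described library by library, differed by -0.89 for 10 µM sorafenib and -1.12 for added IACS-010759.

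For the response to 10 µM sorafenib, among the mevalonate genes MVD differed by -1.61, FDPS by -1.35, ACAT2 by -0.79 and MVK by -1.18. Among the sterol genes LSS differed by -2.50, TM7SF2 by -1.86, FDFT1 by -1.18, HSD17B7 by -2.02 and DHCR7 by -0.80. In the control of SREBP2 the differences were -1.81 for INSIG1, -1.43 for SREBF2 and -0.45 for INSIG2. Those of transport and export were 1.55 for MYLIP, -1.29 for STARD4 and -1.07 for ABCA1. At 10 µM the call of ACAT2 was lost in 11 of 18 alternatives (highest adjusted p 0.172), that of INSIG2 in 3 of 18 alternatives (highest adjusted p 0.159) and that of DHCR7 in 2 of 18 alternatives (highest adjusted p 0.0692).

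For the response to added IACS-010759, MVD differed by -1.61, FDPS by -1.39, ACAT2 by -0.80, IDI1 by -1.46 and MVK by -0.92. The sterol genes followed with LSS at -2.09, TM7SF2 at -1.79, FDFT1 at -1.94, HSD17B7 at -1.87 and DHCR7 at -1.26. Control genes differed by -1.85 for INSIG1, -1.58 for SREBF2 and -1.19 for INSIG2. Transport and export genes differed by 0.77 for MYLIP, -1.01 for STARD4, -2.28 for ABCG1 and -1.24 for ABCA1. The call for ACAT2 was lost in 11 of 18 alternatives (highest adjusted p 0.0951).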

How the results depend on the processing

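In OCUG-1, the counts of called genes stayed within 1.5 times at 10 µM (20 to 22 with 1 library left out, 21 in all), for added IACS-010759 (22 to 24, 23 in all), for the combination against vehicle (22 to 25) and for 10 µM against 1.25 µM (21 to 23), and ran from 4 to 11 at 1.25 µM. In HuCCT1 they ran from 3 to 18 at 1.25 µM, 9 to 16 at 10 µM, 1 to 5 for added IACS-010759, 4 to 9 for the combination against vehicle and 6 to 11 for 10 µM against 1.25 µM. Differences between lines ran from 2 to 4 at 1.25 µM, 17 to 21 at 10 µM and 20 to 22 for added IACS-010759, and the vehicle groups from 17 to 18. Without the third HuCCT1 replicate of 3 groups, 22 genes were called at 1.25 µM, 19 at 10 µM and 16 for added IACS-010759. In the same way 15 were called for the combination against vehicle and 16 for 10 µM against 1.25 µM, and 5 differed between lines at 1.25 µM. The share of all genes called under that alternative is not given here. Under that alternative NSDHL at 10 µM was called with the opposite sign (0.26), as was FDPS at 10 µM against 1.25 µM (0.27); the cause was not tested. Scaling by library size gave 7 calls for HuCCT1 at 1.25 µM. For the 3 HuCCT1 calls on adding IACS-010759, library size gave 6, no filter 6, DESeq2 7 and only the compared groups 10. The share of all genes called in these runs, or with single libraries left out, is not given here either.

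The replicate block gave 5 HuCCT1 calls for added IACS-010759, and in the other comparisons kept the count within 1.5 times. Whether the replicate numbers pair the libraries was not settled, because weak correlations cannot exclude pairing. The deviations of same-numbered libraries correlated above 0.1 in 4 of 18 HuCCT1 and 1 of 18 OCUG-1 pairs. For HuCCT1 the same-numbered pairs had a median correlation of 0.0505, reaching 0.396, and other pairs a median of -0.0236. The OCUG-1 values were a median of -0.0295, reaching 0.244, and 0.00972 for other pairs. Counting error is small here except for CYP51A1 and for ABCG1 in HuCCT1.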
